A study of Mus musculus with 4 samples.

Results

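The sperm tail is a motile cilium, and the genes described here encode its moving parts and the machinery that builds it: axonemal dyneins, tektins, central apparatus and radial spoke proteins, cilia and flagella associated proteins (CFAP), the ruler and nexin-dynein regulatory complex, dynein docking and assembly factors, and intraflagellar transport (IFT) with its kinesin-2 motor. The list held 49 mouse genes, chosen by name, although earlier results of these data were known when it was made. Of these, 46 had a probe set with 1 gene symbol, out of 18193 such genes on the array, and the probe set with the highest mean signal stood for its gene (the lead probe set). Leads of 44 members passed the filter on low signal, a mean of at least 45.8 over the 4 arrays, as did those of 12241 genes in all. Dnah17, at signals between 6.70 and 7.08, and Rsph4a, between 5.88 and 6.04, fell under it. Dnah3 and Cfap44 had no probe set assigned to them alone, and Tcte3 had only 2 probe sets shared with other genes, so these 3 members have no values.

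RNA from whole testis, snap-frozen, of 8-week-old C57BL/6J mice was hybridised to 4 Affymetrix arrays, 2 of Taf7l knockout and 2 of wild type littermates. Taf7l is an X-linked relative of the TFIID subunit gene Taf7. The kind of knockout allele was not given in the sources used here, and apart from genotype the labels give both groups the same description. The title and the description of knockout replicate 2 disagree on its number, and no label says that the 2 arrays of a group came from separate animals, so p-values measure the spread between arrays, which may be technical. With 2 arrays against 2, an exact permutation test of a single gene cannot go below p = 0.333, and the tests below come from limma, fitted over all 22519 probe sets that passed the filter.

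In the axoneme, outer and inner dynein arms on one doublet microtubule walk along its neighbour. The nexin-dynein regulatory complex, the radial spokes and the central apparatus turn that sliding into a regulated bend. Tektins are filaments associated with the doublet microtubules, and intraflagellar transport carries building material along them while a cilium grows. Most of these genes are transcribed in meiotic and postmeiotic germ cells, and RFX factors, which bind a palindromic element called the X-box, are known regulators of many of them.

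The promoters of 3 members are shown because Dnaic2 was lower and Dnah9 higher in the knockout by the test below, while Spag16, whose promoter like that of Dnaic2 holds an X-box, was among the members that did not pass it. Each is the RefSeq window of 300 bases (GRCm38.p6), from 250 bases before to 50 bases after the annotated start, written 5′ to 3′ on the gene's strand in lower case with any X-box match in capitals. The windows are chr11:114727169-114727468 on the plus strand for Dnaic2, chr1:69826720-69827019 on the plus strand for Spag16 and chr11:66168502-66168801 on the minus strand for Dnah9.
Dnaic2: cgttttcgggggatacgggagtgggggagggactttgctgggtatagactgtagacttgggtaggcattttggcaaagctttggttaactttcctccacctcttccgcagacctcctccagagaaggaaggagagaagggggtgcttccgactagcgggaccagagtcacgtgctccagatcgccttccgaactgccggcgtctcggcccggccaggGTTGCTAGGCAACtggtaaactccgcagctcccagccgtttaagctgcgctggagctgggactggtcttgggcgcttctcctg
Spag16: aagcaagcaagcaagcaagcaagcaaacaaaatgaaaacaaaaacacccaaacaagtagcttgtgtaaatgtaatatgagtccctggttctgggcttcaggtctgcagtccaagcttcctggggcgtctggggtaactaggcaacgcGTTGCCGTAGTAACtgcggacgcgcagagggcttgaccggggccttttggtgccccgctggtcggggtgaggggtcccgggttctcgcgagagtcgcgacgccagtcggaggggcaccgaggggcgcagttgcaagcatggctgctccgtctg
Dnah9: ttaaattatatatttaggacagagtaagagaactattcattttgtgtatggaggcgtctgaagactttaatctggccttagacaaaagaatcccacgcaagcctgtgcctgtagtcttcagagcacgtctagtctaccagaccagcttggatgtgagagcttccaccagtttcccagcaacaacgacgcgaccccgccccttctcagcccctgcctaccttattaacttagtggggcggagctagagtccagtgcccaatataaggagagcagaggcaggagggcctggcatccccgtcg
The match in Dnaic2 covers bases 218 to 230 of its window and that in Spag16 bases 148 to 161. No X-box match lies in the Dnah9 window, which says only that these letters are not in it.

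Windows were given for 41 of the members, 46 windows in all, as some genes have several starts. The X-box was found in 8 of these 46 windows, 17.4%, against 1.53% of all 32851 windows. By gene it was found in 7 of 41: Dnaic1, Dnaic2, Tekt2, Spag16, Hydin, Ift57 and Cfap44. The log2 differences (knockout minus wild type) of the 6 of them with values ran from -0.78 for Dnaic2 and -0.29 for Tekt2 through -0.15 for Hydin, -0.10 for Dnaic1 and -0.09 for Ift57 to 0.06 for Spag16. Other axoneme and IFT genes held the X-box in 11 of 86 windows, 12.8%. The shorter letters GTTGCC, which some X-boxes contain, were in 17 of the 46 member windows, 37.0%, against 12.5% of all windows. TATAAA was in 0 of the 46 windows, against 13.6% of all windows and 5.81% of those of the other axoneme and IFT genes. All motifs were searched on both strands, and a match is a description of the letters, not a bound site.

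Taf7l itself gave signals of 829 and 818 in wild type and of 80.6 and 72.5 in knockout, 10.8-fold lower by limma (log2 -3.43, adjusted p = 0.0033). Across all tested probe sets the median log2 difference was -0.05, and limma called 312 of them at an adjusted p under 0.05, 1.39%, of which 212 were lower and 100 higher. The sources used here do not state how the arrays were scaled to each other. Directions are therefore given as deposited, with the values after quantile normalization and median centring where they turn. Spermatid marker signal summed to 386089 and 375635 in wild type and to 361810 and 350949 in knockout, with 6 of 7 markers lower. The Leydig cell sum was higher in the knockout (16079 and 15805 against 19892 and 20236), as were the sums of Sertoli cells (47520 and 43830 against 56074 and 51890) and macrophages (1575 and 1683 against 2009 and 1982). Adipocyte marker signal was 844 and 3968 in wild type and 945 and 1653 in knockout, and epididymal marker signal 340.3 and 763 against 304 and 291, so wild type replicate 2 stood apart in both. The ratio of 3′ to 5′ actin probe sets was 2.09 and 1.999 in wild type and 2.42 and 2.18 in knockout, and that of Gapdh went the other way, 1.04 and 0.990 against 0.927 and 0.938. In a bulk sample, fewer cells of a type and less RNA per cell cannot be told apart.

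As a group, the members sat slightly lower in the knockout: 37 of 44 had a lower mean at the lead probe set and 7 a higher one, with a median log2 difference of -0.17 and a range from -0.78 to 0.96. Over all tested probe sets 60.0% were lower, with a median of -0.05, and over the 11260 probe sets with a mean signal at or above 318, where 41 of the 44 members lie, 67.4% were lower, with a median of -0.09. The arrays of the genotypes did not overlap for 34 members, 31 lower and 3 higher, where all tested probe sets gave 36.3% lower and 18.7% higher; among those brighter probe sets these shares were 48.1% and 17.4%. limma called 1 member lower, Dnaic2, against a background of 0.941%, and 1 member higher, Dnah9, against 0.444%. A further 20 lower members had an unadjusted limma p under 0.05, so 21 of 44 in all, where 17.8% of all tested probe sets did. Dnah9 alone was higher at that level, against 6.96%. The share is larger among brighter probe sets: when limma was fitted to those 11260 alone, 4177 had an unadjusted p under 0.05 in either direction, and 22 of 41 members did. The members' median was -0.09 with 30 of 44 lower after quantile normalization, which moved the median of all probe sets to -0.00, and -0.13 with 36 lower after median centring. Spermatid markers stood at a median of -0.13 beside these values (-0.052 after quantile normalization), and the 3′ to 5′ ratio was higher in both knockout arrays for actin and lower in both for Gapdh. The part of spermatid content or RNA quality in the members' differences was not tested.

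**Figure D1:**
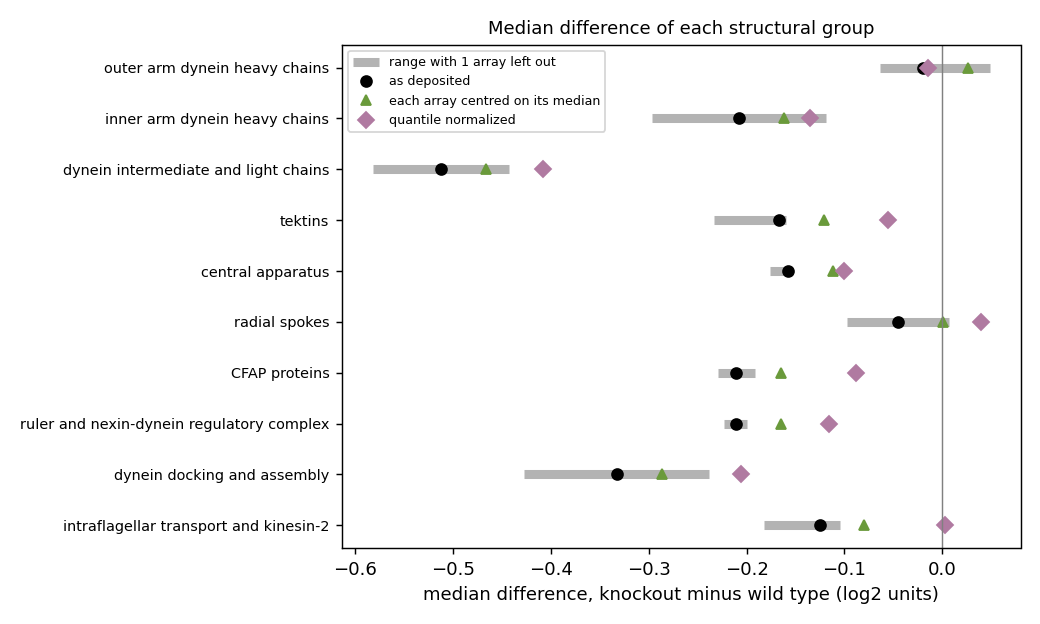
Median log2 difference, knockout minus wild type (x axis), of the members of each group (y axis): circles as deposited, triangles after median centring, diamonds after quantile normalization, and grey bars the range over fits with 1 array left out. At lead probe sets the dynein intermediate and light chains have the lowest median, -0.51 (with the mean of each gene's probe sets they are at -0.19 and docking and assembly at -0.46). The medians of the radial spokes (2 genes) and outer arm heavy chains (4 genes) lie close to 0 under each scaling. The outer arm genes themselves range from -0.18 to 0.96, and Dnah5 and Dnah11 lie just above the filter on low signal.

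By single array the same signals can be read against each member's wild type mean, which restates the group difference and adds no separate support. The 2 wild type medians mirror each other because that mean is taken from them, and counts over all probe sets are not given. The median member was 0.04 above the wild type mean on wild type replicate 1 and -0.04 on replicate 2, and at -0.16 and -0.20 on knockout replicates 1 and 2 (log2). Knockout replicate 1 was the lowest of the 4 arrays for 24 members and knockout replicate 2 for 14, whereas a wild type array was lowest for 6. Wild type replicate 1 was the highest array for 27 members.

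**Figure D2:**
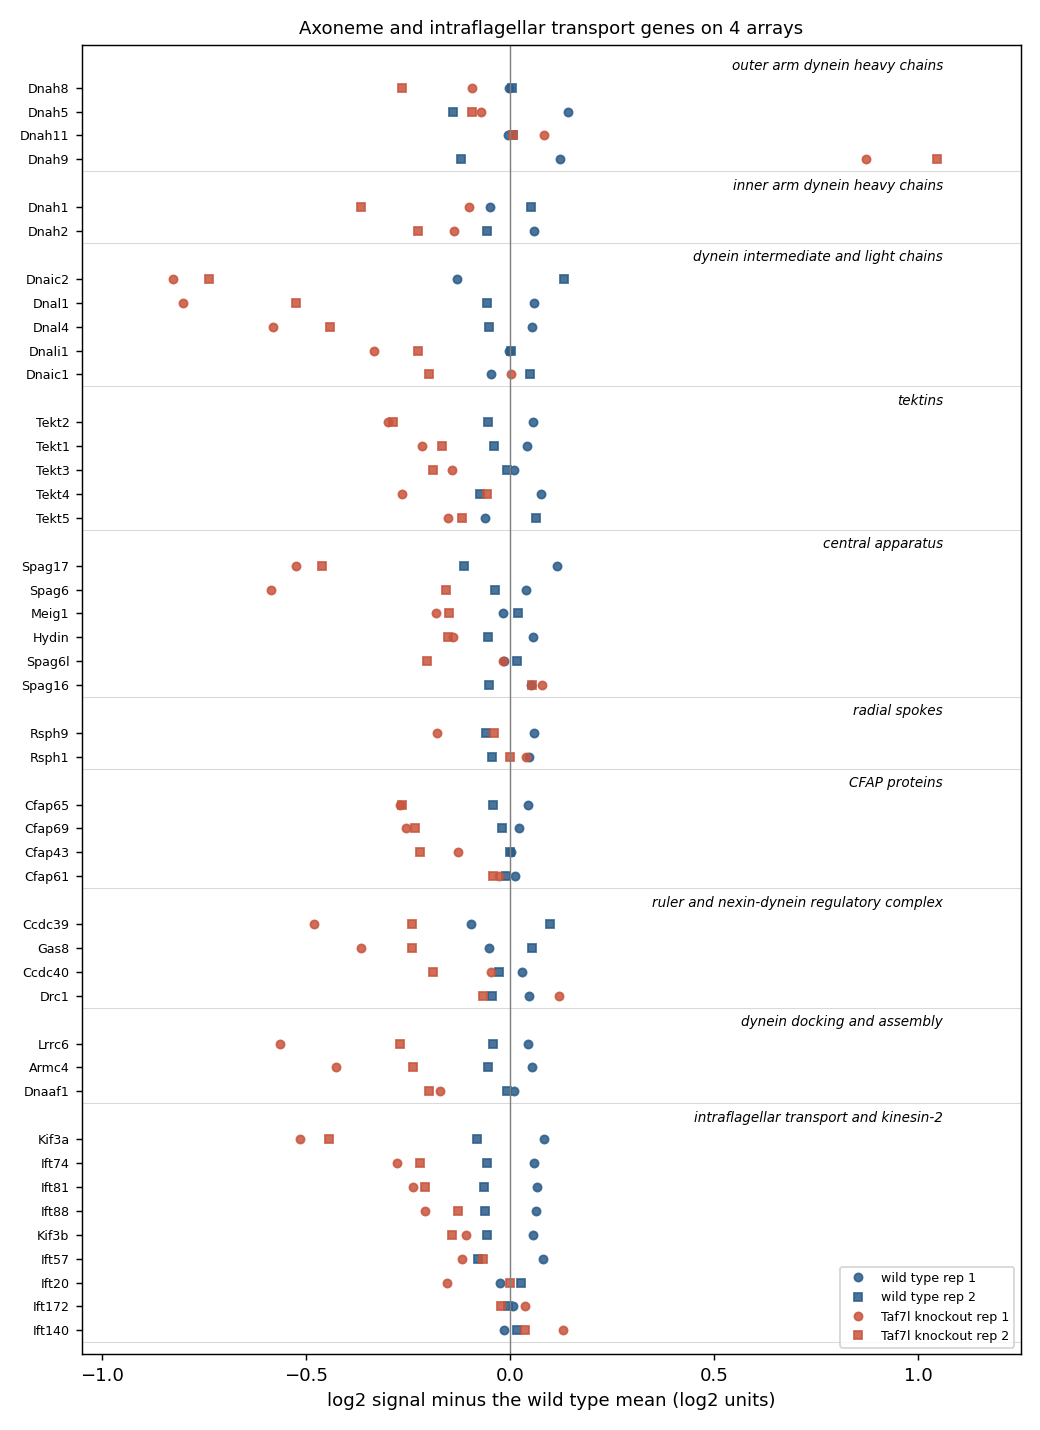
Log2 signal of each of the 44 tested members (y axis, by group) on each array minus its wild type mean (x axis); blue points are the 2 wild type arrays and red points the 2 knockout arrays, with circles for replicate 1 and squares for replicate 2. Most knockout points lie left of 0, those of Dnah9 lie far to the right, and Dnaic2 and Dnal1 lie farthest left.

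The outer arm dynein heavy chains, the motor subunits of the arm that drives beat frequency, did not move together. Dnah9 was at signals of 168 and 142 in wild type and 282 and 318 in knockout. Both knockout arrays were well above both wild type arrays, a mean of 300.2 ± 25.5 against 155 ± 18.3 (SD, n = 2), or 1.94-fold higher (log2 0.96, SE 0.13, limma adjusted p = 0.049). Dnah9 is a heavy chain of motile cilia. Its other probe set, at about 5 on every array, was under the filter. Dnah8, the heavy chain best known from the sperm tail, was at 7176 and 7209.8 in wild type and at 6737 and 5978 in knockout, without overlap (log2 -0.18, limma adjusted p = 0.214). Signals of Dnah5, at 58.2 and 47.8 against 50.2 and 49.4, overlapped between genotypes. Dnah11 read 56.7 and 57.1 in wild type and 60.3 and 57.1 in knockout and overlapped too. Both of these lay just above the filter, while Dnah17 lay under it, so for 3 of the 5 listed outer arm heavy chains the arrays carry little signal.

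The Dnah9 call was a narrow one. With quantile normalization its limma adjusted p was 0.0539, without the filter 0.160 and without the variance trend 0.0751. With 1 array left out limma called no probe set of any gene, that of Taf7l included, so the loss of a call there says nothing about a single gene. In those fits the lone array is taken to vary as much as the arrays of the other genotype. The adjusted p of Dnah9 was then 0.353 or 0.297 without wild type replicate 1 or 2 and 0.152 or 0.0958 without knockout replicate 1 or 2, and its log2 difference stayed between 0.84 and 1.08. Multiciliated epithelium of the efferent ducts also expresses axonemal dyneins. Of its 5 listed markers, Mcidas and Gmnc had no probe set of their own, and Ccno was under the filter at 16.3 and 17.2 in wild type and 20.7 and 19.9 in knockout. The summed signal of the list, including Deup1 and Tppp3, was 8215 and 7431 in wild type and 6469 and 6756 in knockout, and Tppp3, lower as deposited, turned higher under both other scalings. The part of such cells in the Dnah9 difference was not tested.

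The inner arm heavy chains Dnah1 and Dnah2, motors that shape the bend, were both lower at their lead probe sets. Dnah1 was at 555 and 595 in wild type and 536 and 446 in knockout (log2 -0.23, limma adjusted p = 0.288). Its other tested probe set pointed the other way, at 136 and 101 against 138 and 150.1 (log2 0.30, limma adjusted p = 0.338). Dnah2 was at 771 and 711 against 673 and 633 (log2 -0.18, limma adjusted p = 0.264).

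The dynein intermediate and light chains, which anchor and regulate the arms, had low values at their lead probe sets. All 5 tested were lower, 4 without overlap, where 48.1% of the brighter probe sets (at or above 318) were lower without overlap. The median log2 difference of the 5 was -0.51 (after quantile normalization 4 were lower, all but Dnaic1, with a median of -0.41). The median was -0.28 without probe sets of the _s_ or _x_ kind and -0.19 with the mean of each gene's probe sets, where the docking and assembly factors were at -0.46. Dnaic2, an outer arm intermediate chain, was at 3295 and 3953 in wild type and at 2033 and 2162 in knockout. Both knockout values lay far below both wild type values, a mean of 2097 ± 91.4 against 3624 ± 466 (SD, n = 2), 1.72-fold lower with an SE of 0.10 on a log2 difference of -0.78 (limma adjusted p = 0.049). The suffix of this probe set marks probes that can match other transcripts. The gene's other probe set was near the filter and level, at 81.7 and 79.9 against 79.1 and 79.9 (log2 -0.02, limma adjusted p = 0.907). Like Dnah9, Dnaic2 lost its call with quantile normalization (log2 -0.65, limma adjusted p = 0.0569), without the filter (0.165) and without the variance trend (0.0810). With 1 array left out, where nothing was called, its log2 difference stayed between -0.92 and -0.65, and its limma adjusted p was 0.353 and 0.297 without wild type replicates 1 and 2, and 0.153 and 0.0888 without knockout replicates 1 and 2.

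Dnal1, an outer arm light chain that binds the motor domain, was at 903 and 833 in wild type and 497 and 603 in knockout, a mean of 549.9 ± 74.5 against 868 ± 49.4 (SD, n = 2; log2 -0.66, limma adjusted p = 0.0601). A second Dnal1 probe set was level, at 639 and 607 against 689 and 619 (log2 0.07), and the dimmest, close to the filter, stood at 0.22. The lead and the other probe sets of Dnal1 therefore differ in direction. Dnal4, a further light chain, had 1 probe set, at 1443 and 1339.8 in wild type and 929 and 1023 in knockout, with no overlap (log2 -0.51, SE 0.085, limma adjusted p = 0.0555). Dnali1, a light intermediate chain of inner arms, was at 4619 and 4635 against 3668 and 3954 (log2 -0.28, limma adjusted p = 0.0788). Its other probe set overlapped between genotypes, at 2416 and 2452 against 2514 and 2044 (log2 -0.10). Dnaic1, the other outer arm intermediate chain, overlapped between genotypes at 1148 and 1227 against 1188 and 1033 (log2 -0.10), and its difference turned to 0.00760 after quantile normalization. The partner intermediate chains Dnaic1 and Dnaic2 thus read -0.10 and -0.78, a gap that has no test here.

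**Figure D3:**
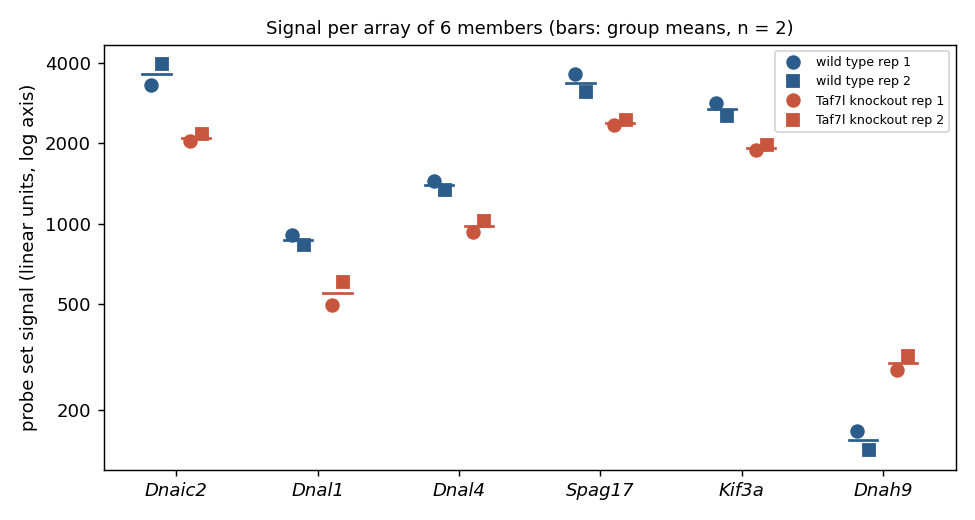
Signal on each of the 4 arrays (log axis) of 6 members, Dnaic2, Dnal1, Dnal4, Spag17, Kif3a and Dnah9, with wild type in blue, knockout in red and the mean of each group of 2 as a bar. The knockout arrays lie above the wild type arrays for Dnah9 and below them for the others, with no overlap between genotypes.

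All 5 tektins were lower by a small amount, with a median of -0.17 and a range of -0.29 to -0.14 as deposited; after quantile normalization all 5 were still lower, with a median of -0.056. No tektin passed the limma threshold. Tekt2, needed for inner arm assembly and motility of mouse sperm, was at 9874 and 9142 in wild type and at 7714 and 7784 in knockout, without overlap (log2 -0.29, SE 0.060, limma adjusted p = 0.0699). Tekt1 was at 13321 and 12596 against 11142 and 11527 (log2 -0.19, limma adjusted p = 0.114). Tekt3 was at 5741 and 5679 against 5167 and 5005 (log2 -0.17, limma adjusted p = 0.143). Tekt5 was at 1661 and 1814 against 1560.2 and 1599 (log2 -0.14, limma adjusted p = 0.327). These 3 did not overlap between genotypes, whereas Tekt4 did, at 7041 and 6345 against 5559 and 6427 (log2 -0.16, limma adjusted p = 0.362). Among the brighter probe sets, where all tektins lie, 48.1% were lower without overlap.

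The central apparatus group, as listed, includes Meig1, a gene of manchette transport. It had a median of -0.16, with 5 of 6 lower (4 after quantile normalization). None was called by limma, although 3, Meig1 among them, had an unadjusted limma p under 0.05. Spag17, a large protein of the central apparatus, was at 3624 and 3098 in wild type and 2327 and 2431 in knockout, a mean of 2379 ± 73.9 against 3361 ± 372 (SD, n = 2; 1.41-fold lower, log2 -0.49, limma adjusted p = 0.0636). Its dimmer probe set was level at 302 and 293 against 299 and 292 (log2 -0.0087). Spag6 was at 5819.5 and 5517 against 3774 and 5080.0, and its knockout arrays differed from each other more than those of most members (log2 -0.37, limma adjusted p = 0.200). Its paralogue Spag6l was nearly level, at 9171 and 9362 against 9151 and 8048 (log2 -0.11, turning to 0.00214 after quantile normalization). The signals of such close paralogues can mix on an array. Spag16, a partner of Spag6 in the central apparatus, was at 6251 and 5821 against 6363 and 6253, the knockout arrays slightly above (log2 0.06, limma adjusted p = 0.570). Hydin, a central pair projection protein, was at 486 and 449.8 against 424 and 421 (log2 -0.15, limma adjusted p = 0.353). Meig1, which acts in manchette transport of cargo such as SPAG16 during spermiogenesis, was at 48202 and 49501 against 43022 and 43993 (log2 -0.17, limma adjusted p = 0.0922).

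The 2 tested radial spoke members overlapped between genotypes. Rsph1 was at 24914 and 23400.0 in wild type and 24804 and 24107 in knockout, a log2 difference of 0.02 with an SE of 0.052. Rsph9 was at 3501 and 3227 against 2968 and 3269.6 (log2 -0.11, limma adjusted p = 0.459), and stood at 0.020 after quantile normalization. Outside the members, the tested Rsph genes were lower without overlap as deposited, and none was called. The same held for 36.3% of all tested and 48.1% of the brighter probe sets. These genes were Rsph6a (log2 -0.41, limma adjusted p = 0.111), Rsph3a (-0.75, 0.123) and Rsph14 (-0.15, 0.337). Rsph3a lay close to the filter on low signal, at 93.0 and 117 in wild type and 50.9 and 75.3 in knockout.

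All 4 measured CFAP genes were lower without overlap as deposited, where 48.1% of the brighter probe sets were. Their median was -0.21, but Cfap61 turned higher under both other scalings, and none of the 4 was called by limma. Cfap69, needed for sperm tail formation, was at 19713 and 19179.6 in wild type and at 16282 and 16522 in knockout (log2 -0.25, SE 0.046, limma adjusted p = 0.0636). Its other 2 probe sets gave log2 differences of -0.25 and -0.30, so all of them had the same direction and a like size. Cfap65 was at 2398 and 2257 against 1928 and 1936 (log2 -0.27, limma adjusted p = 0.0891). Cfap43 was at 4125 and 4117 against 3772 and 3532 (log2 -0.17, limma adjusted p = 0.168). Cfap61, a radial spoke component, was at 816 and 804 against 794 and 786, and its log2 difference of -0.04 turned to 0.046 after quantile normalization and 0.011 after median centring.

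The ruler and nexin-dynein regulatory complex gave 3 lower members and 1 level one, with a median of -0.21 and none called by limma. Ccdc39, which with Ccdc40 sets the repeat along the doublet, was at 10100.2 and 11557 in wild type and 7734 and 9145 in knockout (log2 -0.36, limma adjusted p = 0.124). Its dimmer probe set separated the genotypes further, at 3859 and 3820 against 2437 and 2838 (log2 -0.55, limma adjusted p = 0.0541). Its partner Ccdc40 was at 1578 and 1515 against 1496 and 1357 (log2 -0.12, limma adjusted p = 0.420). Gas8, a core subunit of the regulatory complex, was at 745 and 802 against 599.8 and 654 (log2 -0.30, limma adjusted p = 0.117). Drc1, another core subunit, overlapped at 1604 and 1508 against 1690.0 and 1485 (log2 0.03), and stood between -0.07 and 0.12 when 1 array was left out.

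The docking and assembly factors, which load the dynein arms or fold them in the cytoplasm, were lower without overlap in 3 of 3 cases. Of the brighter probe sets 48.1% were. The median of the 3 was -0.33, and none was called by limma. Armc4, an outer arm docking factor, was at 2634 and 2445 in wild type and 1887 and 2152 in knockout (log2 -0.33, limma adjusted p = 0.105). Lrrc6 was at 3693 and 3476 against 2420.1 and 2968 (log2 -0.42, limma adjusted p = 0.102), and its dimmer probe set gave -0.56 (limma adjusted p = 0.070). Dnaaf1 was at 15579 and 15397 against 13749 and 13485 (log2 -0.19, limma adjusted p = 0.0914). The other Dnaaf1 probe set was at 518 and 555 against 346 and 303, further apart than the lead (log2 -0.73, limma adjusted p = 0.051).

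Intraflagellar transport had the smallest differences of the larger groups. Of its 9 tested members 7 were lower as deposited and 4 after quantile normalization, with a median of -0.13 that turned to 0.00301 after quantile normalization, and none was called by limma. The 7 IFT proteins had a median of -0.09 and the 2 kinesin-2 motor subunits one of -0.30. Ift172, of the complex that carries cargo to the tip, was level at 9061 and 8974 in wild type and 9236 and 8880.0 in knockout (log2 0.0062, SE 0.051). Ift140, of the complex for return transport, was at 6558 and 6705 against 7244 and 6792, both knockout arrays slightly higher (log2 0.08, limma adjusted p = 0.457). Ift20 (1842 and 1909 against 1684 and 1873) overlapped between genotypes, and so did Ift57 (2414 and 2164 against 2106 and 2180.0). Their log2 differences of -0.08 and -0.09 became 0.044 and 0.026 after quantile normalization. Ift88 was at 1226 and 1126 against 1016 and 1075 (log2 -0.17, limma adjusted p = 0.273).

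Ift74 and Ift81, which pair with each other in the transport complex and bind tubulin, were lower without overlap. Ift74 was at 17706 and 16322 in wild type and 14024 and 14582 in knockout (log2 -0.25, limma adjusted p = 0.0872). Ift81 was at 1527 and 1394 against 1237 and 1261 (log2 -0.22, limma adjusted p = 0.158), and its dimmer probe set gave -0.27. Kif3a, a motor subunit of kinesin-2, was at 2836 and 2533 against 1876 and 1970.4, a mean of 1923 ± 66.6 against 2685 ± 215 (SD, n = 2; 1.39-fold lower, log2 -0.48, limma adjusted p = 0.0561). The gene's other 3 tested probe sets gave -0.50, -0.17 and 0.05. Its partner Kif3b was at 6510.5 and 6020.3 against 5807 and 5672 (log2 -0.13, limma adjusted p = 0.292), a difference of 0.00301 after quantile normalization.

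**Figure D4:**
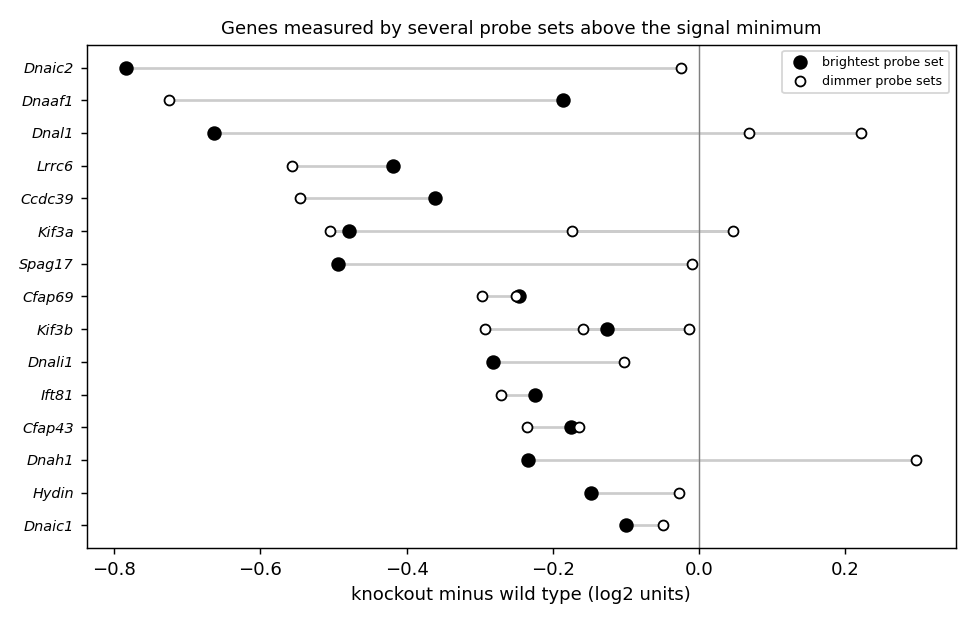
Log2 difference, knockout minus wild type, (x axis) of every tested probe set of the 15 members with more than 1 (y axis), the lead filled and the others open. In 12 of the 15 genes all probe sets have the same sign, and Dnah1, Dnal1 and Kif3a are the exceptions.

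Probe sets of one gene share its RNA and are not replicates. Of the 80 member probe sets 66 passed the filter, and no probe set other than the leads of Dnaic2 and Dnah9 was called by limma. For Dnaic1, Dnaic2, Dnal1, Spag17, Dnah1, Dnali1, Hydin, Kif3a and Kif3b a tested dimmer probe set overlapped between genotypes or pointed the other way. For Ccdc39, Lrrc6, Dnaaf1, Cfap69 and Ift81 every tested dimmer probe set had a lower log2 difference than the lead. For Cfap43, Kif3a and Kif3b some did.

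Other axoneme and IFT genes, a list of 81 tested genes outside the members, had a median of -0.22, with 66 lower and 15 higher, and 58 lower without overlap, where 36.3% of all tested and 48.1% of the brighter probe sets were. Their median was -0.11 with 56 lower after quantile normalization. All 16 other CFAP genes were lower as deposited (median -0.31) and 15 under both other scalings, where Cfap97 turned. Of the 22 genes of the spokes, central apparatus and regulatory complex 20 were lower under each scaling (median -0.26 as deposited). The other IFT genes were split, 13 lower and 10 higher with a median of -0.04 as deposited, and 8 lower and 15 higher with a median of 0.067 after quantile normalization. Median centring gave 11 lower and 12 higher, with a median of 0.0046. limma called 1 of the 81 lower at its lead probe set, where it called 0.941% of all tested probe sets, Ccdc189 (now Cfap119), at 2129 and 2014 in wild type and 1420.4 and 1494 in knockout (log2 -0.51, adjusted p = 0.0496). Cfap70 was called lower at a dimmer probe set only, at 177 and 176 against 113 and 111 (log2 -0.66, limma adjusted p = 0.0494). Its lead probe set was not (log2 -0.26, limma adjusted p = 0.0986). The next lowest p-values belonged to Iqcd of the regulatory complex (log2 -0.53, limma adjusted p = 0.051), Ccdc114 of the outer arm docking complex (-0.64, 0.051), Tcte1 (-0.63, 0.051), Wdr60 (-0.44, 0.0535) and Cfap126 (-0.37, 0.055).

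1 gene of this list was called higher, against 0.444% of all tested probe sets: Hspb11, the gene of the transport protein IFT25, at 2241 and 2292 in wild type and 3195 and 3399 in knockout. Both knockout arrays lay well above the wild type arrays, a mean of 3297 ± 144 against 2266 ± 36.5 (SD, n = 2; 1.45-fold, log2 0.54, SE 0.064, limma adjusted p = 0.0471). Ift27, whose product binds IFT25, stood at -0.26 (limma adjusted p = 0.103). The other higher genes with the smallest p-values, Dnah12, Ttc26, Wdr19, Dync2h1 and Ttc30a1, had log2 differences between 0.07 and 0.15, and none was called. The calls of Ccdc189 and Hspb11 were lost without the filter (limma adjusted p = 0.160 for both) and without the variance trend (0.0833 and 0.0810), and that of Ccdc189 with quantile normalization too (0.0668). With any 1 array left out, when limma called nothing on the array, their adjusted p lay between 0.0851 and 0.353, at log2 differences of -0.55 to -0.47 for Ccdc189 and 0.50 to 0.58 for Hspb11.

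**Figure D5:**
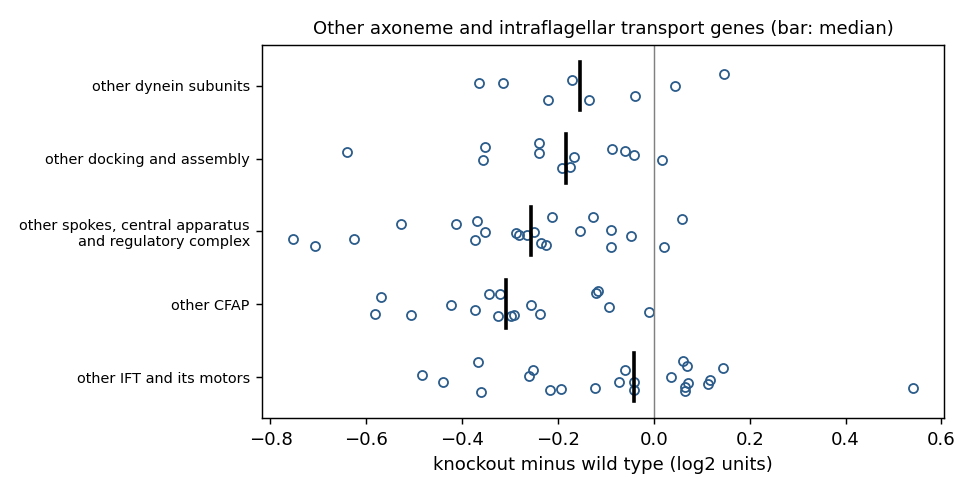
Log2 difference, knockout minus wild type, (x axis), at the lead probe set of each of the 81 other axoneme and IFT genes (circles), by group (y axis), with the group median as a bar. The 16 other CFAP genes all lie below 0 as deposited, and the point at 0.54 among the IFT genes is Hspb11.

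Of 10 transcription factors known from ciliary or spermatid gene expression, 8 were lower and 2 higher under each scaling, with a median of -0.22 as deposited, and none was called by limma. Foxj1, the main activator of motile cilium genes, was at 1365 and 1026 in wild type and 547 and 810 in knockout, with a wide spread within each genotype (log2 -0.83, limma adjusted p = 0.109). Rfx2, which binds the X-box in germ cells, was at 2474 and 2200 against 1746 and 1966 (log2 -0.33, limma adjusted p = 0.117). Mybl1, a meiotic activator, stood at -0.53 (limma adjusted p = 0.089). Rfx1, Rfx3 and Rfx4 stood at -0.34, -0.24 and -0.16, Crem at -0.20 and Sox30 at -0.18, while Tbpl1, at 0.04, and Rfx7, at 0.02, were level. The lead signals of Crem and Sox30 overlapped between genotypes. Tested dimmer probe sets of Crem pointed the other way, at 0.18 and 0.23, whereas those of Rfx1, Rfx2 and Mybl1 were lower like their leads.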

How the data were processed

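Whole testis RNA was measured on Affymetrix arrays, 1 per sample, with 2 samples of Taf7l knockout and 2 of wild type; whether a group's samples came from separate animals is not stated. The deposited values are linear probe set signals (intensity) made by the authors with MAS5, per the submitters' processing notes, which give no version here. The scaling between arrays is not stated there, and detection calls were not used here. Signals were taken as log2 with no offset and no further normalization. Of 45037 mouse probe sets, 22519 with a mean signal at or above the median of 45.8 were tested with limma 3.58.1 (R 4.3.3; lmFit, eBayes with a variance trend, genotype as the only term), and p-values were adjusted by Benjamini-Hochberg over all of them and called under 0.05. The residual degrees of freedom were 2 and the number of arrays limits the precision. A fold is 2 to the power of the log2 difference of group means. Probe sets were named from GEO's platform annotation: 34945 had 1 symbol, 932 several and 9160 none; symbols were updated through RefSeq (GRCm38.p6). No probe set was named where several symbols were given.

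Members and lists were chosen with earlier results of these data known. Named were every member, members' other probe sets that were called, and of the other lists the genes called at any probe set and the 6 with the smallest p in each direction. The transcription factors did not meet this rule and are named outside it. Their values, those of members' dimmer probe sets, of Ift27 and of Rsph3a, Rsph6a and Rsph14 were added after being seen. The fit was also run on simulated data with planted changes, and that run is not used as support for any call. As alternatives the fit was repeated with quantile normalization, with arrays centred on their medians, with an offset, with other filters, without the variance trend, with a replicate block, with other probe set choices and without each array in turn. Lists of cell type markers were summed over lead probe sets: those of spermatogonia (1510 and 1587 in wild type, 1643 and 1553 in knockout), spermatocytes (36053 and 38727, 36017 and 41881) and peritubular myoid cells (2168 and 2201, 2339 and 2155) are given only here.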

Additional observations from a re-analysis of the deposited data

How the results depend on the processing

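Counts of calls depended on the processing. Against 312 probe sets called by limma as deposited, quantile normalization gave 148, median centring 697, a filter at the 75th percentile 2375, no variance trend 36, 1 probe set per gene 806, and no filter 0 (with 6192 at an unadjusted p under 0.05). Higher calls made up 32.1% as deposited, 61.5% after quantile normalization and 40.6% after median centring. Leaving out any 1 array gave 0 limma calls, in all and among members (lowest and highest 0, the lone array being taken to vary as much as the other genotype's), with 3084 to 5500 probe sets and 11 to 20 members at an unadjusted p under 0.05. Against 2 members called, limma called 0 with quantile normalization, no filter and no variance trend (16, 21 and 16 at an unadjusted p under 0.05), 1 without probe sets of the _s_ or _x_ kind, 7 of 44 with 1 probe set per gene (6.58% of all genes called) and 15 of 41 with the filter at the 75th percentile (21.1%). Replicate numbers were not shown to pair the arrays (correlation of deviations 0.032); with them as a replicate block limma called 541 probe sets and the same 2 members, and no member call changed.

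The members' median of -0.17 was -0.088 after quantile normalization, -0.13 after median centring and -0.20 to -0.16 without 1 array, with 36 to 40 members lower. After quantile normalization subset medians were -0.41 (intermediate and light chains), -0.056 (tektins), -0.10 (central apparatus), 0.040 (radial spokes), -0.089 (CFAP), -0.12 (ruler and regulatory complex), -0.21 (docking and assembly) and 0.00301 (transport). Median centring gave 0.026 for outer arm heavy chains, -0.11 for the central apparatus, 0.000226 for radial spokes, -0.16 for CFAP and -0.17 for the ruler. The outer arm value was -0.18 with the filter at the 75th percentile, which left Dnah8 alone and dropped Dnah9 with the other fewer genes of that group. The median of intermediate and light chains was -0.28 without _s_ and _x_ probe sets. With the mean of a gene's probe sets, medians were -0.075 (inner arm), -0.19 (intermediate and light chains) and -0.46 (docking and assembly). Without 1 array, medians ranged from -0.064 to 0.048 (outer arm), -0.30 to -0.12 (inner arm), -0.58 to -0.44 (intermediate and light chains), -0.23 to -0.16 (tektins), -0.18 to -0.16 (central apparatus), -0.098 to 0.0064 (radial spokes), -0.23 to -0.19 (CFAP), -0.22 to -0.20 (ruler), -0.43 to -0.24 (docking and assembly) and -0.18 to -0.10 (transport).

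Genes that turned after quantile normalization were Cfap61 (0.046; 0.011 after median centring), Dnaic1 (0.00760), Ift20 (0.044), Ift57 (0.026), Kif3b (0.00301), Rsph9 (0.020) and Spag6l (0.00214). Without 1 array, Dnah5 ranged from -0.23 to 0.058, Drc1 from -0.067 to 0.12, Ift172 from -0.022 to 0.035, Rsph1 from -0.027 to 0.063, Dync2h1 from -0.016 to 0.25 and Dnaic1 from -0.20 to 0.00092. Where a value moved, the cause was not tested beyond the fewer genes or arrays named. Dnah5, Dnah11 and the dimmer probe sets near the filter limit what their signal can show.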
